A study of Oryctolagus cuniculus with 3 samples.

Results

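A small part of the rabbit aorta array behaved in one particular way once low signals were raised to a floor. Its signal in the model group then stayed close to that of the control group, and only the recovery group stood higher. The probes with this pattern were selected on their measured log2 ratios. A probe was a member where its model value differed from the control value by less than 0.5 on the log2 scale, which is a 1.41-fold difference, and where its recovery value exceeded the control value by at least 2, which is 4-fold. This gave 163 of 43603 gene probes, or 0.374%. These values chose the members, so the ratios of model and recovery to control describe the set and were not tested.

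The samples were abdominal aortas of male New Zealand white rabbits, 3 months old at purchase. The control rabbit is given in the labels as day 0 of the atherosclerosis schedule, and was uninjured and without added cholesterol. Its sample title also says PBS, and the study's methods describe no PBS treatment of the control rabbits. The model rabbit, collected at day 30, had eaten a high-cholesterol diet for 4 weeks and had received balloon injury of the abdominal aorta 3 days into it. The recovery rabbit, collected at day 60, had gone through the same diet and injury and then 4 weeks without added cholesterol, described as a normal diet in the labels and as caloric restriction in the study's methods. Each group is represented by 1 array, hybridized with RNA from 1 aorta that was picked from 4 rabbits with the help of pathology and intravascular ultrasound. There was therefore no spread between rabbits and no test, every difference is a difference between 3 aortas, and the group cannot be told apart from the animal, its age at collection or its array.

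Regression of an atherosclerotic plaque is a phase of its own: after cholesterol is withdrawn, lipid is removed, macrophages leave or change state and the injured wall is remodelled. Among the genes reported here, PTX3 encodes the long pentraxin, a soluble pattern recognition protein that vascular cells and macrophages make locally in inflammation, and SLC2A3 encodes the high-affinity glucose transporter GLUT3. Most members could not be given a gene name and are described by their values.

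The values are log2 signals that the authors had brought to a common distribution. Before ratios were taken, signals under a floor of 4.37, which is the 40th percentile of the deposited values, were raised to it, so a ratio with a floored value on one side is a lower bound. Each array had 26165 probes above the floor, and 28953 probes passed it in at least 1 array. The members were 0.563% of these 28953 probes. Smooth muscle markers were set beside the tissue label, and 8 of 14 could be placed on probes. Placing went through the study's list of genes changed on these same arrays, as described below. Unchanged markers could thus hardly be placed, and these values do not check the tissue label. Among the 8 placed markers, ACTA2, smooth muscle α-actin, read 12.45, 16.02 and 16.45 in control, model and recovery. All 8 were at least 2-fold higher in model than in control, and all 6 placed adipocyte markers at least 2-fold lower. These counts were largely fixed by the study's selection of changed genes, and not every name is certain. In the placed markers the control array, on which every ratio to control rests, differed widely from the model array.

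A recovery value at least 4-fold above control was seen in 1532 probes, or 5.29% of those tested, and an absolute model ratio under 0.5 in 14522, or 50.2%. Of the 1532 high probes only 163 (10.6%) had a level model value. In 1323 (86.4%) the model value was already higher than control by at least 0.5, and in 753 of them by at least 4-fold. In the remaining 46 the model value was lower by at least 0.5. A high recovery value thus mostly came with a high model value, and the members were the minority for which the model array did not differ in that way.

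The reverse pattern was rarer in number. A recovery value lower than control by 4-fold or more was found for 1810 probes (6.25%), of which 82 (4.53%), lying in 44 blocks of neighbouring probe numbers, had a model value within 0.5 of control. Whether this difference between the directions exceeds the spread between rabbits was not tested.

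Among the members, recovery exceeded control by a median of 2.57 on the log2 scale, from 2.00 to 7.29, that is 5.92-fold at the median and 157-fold at the top. Most were modest: 74 members lay between 2 and 2.5, 35 between 2.5 and 3, and 24 between 3 and 4. At least 8-fold higher were 54 members, against 635 probes (2.19%) of all tested, and at least 16-fold higher were 30, against 288 (0.995%). Over all tested probes the median of recovery minus control was 0.04.

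The rule also sets the recovery values of the members above their model values, by more than 1.5 on the log2 scale. Recovery exceeded model by a median of 2.55, from 1.59 to 7.15, against a median of 0 over all tested probes. At least 4-fold above the model value were 128 members and at least 8-fold 59. Over all tested probes these numbers were 411 (1.42%) and 165 (0.57%), from which nothing is read, since the selection fixes most of the difference.

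The control signal of the members ran from 0.33 to 10.41 with a median of 5.52, the model signal from 0.61 to 10.77 with a median of 5.54, and the recovery signal from 6.42 to 16.62 with a median of 8.94. Control and model ranges were nearly the same, and the rule keeps every recovery value of a member well above the floor. In control 47 members (28.8%) lay below the floor, against 9.63% of tested probes. In both control and model 33 members (20.2%) lay below it, against 3.34%. The 113 members measured above the floor in all arrays had a median of 2.56 for recovery minus control, close to that of the whole set, and the other 50 have only a bound on at least one side.

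Flooring set the model ratio of part of the set. Before flooring, 128 members were within 0.5 of control in the model array. In 29 members the unfloored model value was higher than control by at least 0.5, in 18 of them by at least 2-fold, and in 6 it was lower by that much, in 5 of them by at least 2-fold. These 35 members were level between control and model only after flooring. How far the order of signals below the floor can be read was not tested.

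Membership was graded at the limits. The member closest to the limit on recovery had 5.42 in control, 5.29 in model and 7.42 in recovery, and the closest probe outside had 6.51, 6.99 and 8.51, with a ratio that falls short of 2 only beyond the second decimal. On the model side, a member with 4.94 in control, 4.45 in model and 8.81 in recovery lay just inside at -0.50, and a probe with 6.93, 7.45 and 9.87 lay just outside at 0.51. Within 0.1 of the limit on recovery there were 16 members and 25 probes outside, and within 0.1 of the limit on model 21 members and 34 probes outside.

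The numbers of the probes carry further information. Probe numbers fell into blocks of up to 5 consecutive numbers, and probes of one block agreed closely. Over 3130 blocks with at least 3 probes, all above the floor, the SD of recovery minus control between probes of a block was 0.086 at the median and 0.22 at the 90th percentile. This spread is technical, since it comes from 1 array per group, and the files do not state that a block is one gene. The 163 members lay in 93 blocks. Of these, 47 held a single probe and 46 held several. Among the 116 members in blocks of several probes, 99 (85.3%) shared the block with another member.

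In 9 blocks all 5 probes were members, 45 probes in total, and they show how closely neighbouring probes agreed. In block 1 the 5 probes read 0.33 to 2.25 in control and 1.03 to 2.21 in model, all below the floor, and 11.36 to 11.45 in recovery. Recovery was 132-fold above the floor at the block median, a lower bound on its ratio to control. The SD between the probes of the block was 0.03. One of these probes, A_04_P003352, had the largest bound of all members, at least 135-fold, with 0.33 in control, 2.21 in model and 11.45 in recovery. All control and model values of the block were thus below the floor, and all recovery values were far above it.

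Block 2 was already bright before recovery. Its probes read 10.21 to 10.41 in control, 10.34 to 10.77 in model and 16.32 to 16.62 in recovery, so that recovery was 6.21 above control at the block median on the log2 scale, with an SD of 0.07 between probes. The model values were above the control values at each of the 5 probes, by 0.09 to 0.38.

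The other blocks with 5 members lay at smaller ratios. In block 3 the probes read 4.90 to 5.22 in control, 4.72 to 4.93 in model and 8.91 to 8.99 in recovery, and recovery was 3.93 above control at the median. In block 4 they read 7.15 to 7.33, 6.89 to 7.44 and 10.03 to 10.53, with a median difference of 3.20. Control and model overlapped in both blocks, and every recovery value lay above them. In block 5 the probes read 5.74 to 6.23, 5.36 to 5.91 and 8.60 to 8.86, with a median difference of 2.79. In blocks 3 and 5 the model median was slightly lower than the control median, by 0.20 and 0.31 at the median of the probes' ratios.

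Block 6 lay below the floor in control and in 4 of its 5 probes in model. It had a median of 7.07 in recovery, 2.70 above the floor, which is a lower bound on the ratio to control. Before flooring, the model value was higher than control at each of its 5 probes, by 0.60 to 1.34. None of its probes met the rule without a floor, or with the floor at the 30th, 50th or 60th percentile. In block 7 only 3 of the 5 probes were above the floor in control, and its medians were 4.82, 5.08 and 7.38. Blocks 8 and 9 were bright throughout, with medians of 9.44, 9.71 and 11.91 in block 8 and of 9.58, 9.74 and 11.71 in block 9. In block 9 recovery minus control was 2.02 to 2.56 across the probes, so that the block lay near the limit of the rule.

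Other complete blocks were smaller. A block of 4 probes lay below the floor in control and model and had a median of 9.65 in recovery, 5.28 above the floor. Another block of 4 had medians of 9.44, 9.37 and 13.63, a difference of 4.15 with an SD of 0.058 between probes. A block of 2 probes was below the floor in control and model and read 9.84 and 9.90 in recovery, at the median 5.50 above the floor. For both blocks these are lower bounds on the ratio to control. A block of 3 had medians of 5.23, 5.50 and 8.44 and a difference of 3.21, and another had medians of 6.80, 6.67 and 9.32 and a difference of 2.69. In all, 19 blocks of several probes consisted of members only, with a median SD of 0.126 between their probes.

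The largest measured difference belonged to a probe without neighbours. A_04_P035877 read 5.39 in control, 5.54 in model and 12.69 in recovery, 157-fold above control and 142-fold above model. No further probe of its block was present to compare it with, which holds for all 47 single probes. Other bright single probes read 7.53, 8.01 and 12.96, or 5.42 above control in recovery, and 9.77, 9.90 and 14.58, or 4.81 above control. Another read 6.39, 6.72 and 10.61, or 4.22 above control. In each of them the model value lay slightly above the control value, a direction found in 92 members, while 38 had a lower model value and 33 had both values floored.

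In the 27 blocks that were members in part, the remaining probes mostly moved the same way in recovery. There were 50 such probes, of which 44 were at least 2-fold above control, with a median of 2.10 for recovery minus control. At least 4-fold above control were 26, and these missed the set because of their model value. Only 6 of the 50 were less than 2-fold above control, 4 of which were above the floor in no array. In a block of 3 probes, 2 members had recovery minus control at 3.95 and 3.89, and the third probe, at 3.82, was left out for a model value that differed by -0.58. In a block of 4 the probes disagreed outright: 2 members read 6.13 and 7.35 in control and 10.87 and 12.16 in recovery, and their block partners stayed below 1 in each array. At the level of block medians 77 blocks met the rule, 30 of them with several probes.

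Gene names were available only through the study's supplementary list of changed genes. A gene of that list was given to a probe where exactly 1 probe lay within 0.006 of its ratios of model and of recovery to control, in log2 units. By this rule 2 members were named, PTX3 and BICD1. PTX3 read 4.35 in control, 2.81 in model and 7.53 in recovery. Its recovery value was 8.93-fold above the floor, a lower bound on its ratio to control. The control value lay just under the floor, and before flooring the model value was lower by 1.54 on the log2 scale. The floor is a percentile of the values and no detection limit, so whether PTX3 was expressed in control and model was not tested.

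BICD1, an adaptor that links the dynein motor to its cargo, read 1.93 in control, 4.05 in model and 6.70 in recovery. Its recovery value was 5.03-fold above the floor, a lower bound on its ratio to control. Both earlier values were below the floor, with the model value nearer to it. The expected number of chance matches was 0.00173 for PTX3 and 0.00288 for BICD1, and each probe was the only one of its block.

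The ratios in the list equalled the median over a block for many genes, which was noticed after the values had been seen. With block medians, 2928 of 3715 listed genes met exactly 1 block, against 268 to 292 when the ratios were shifted by 0.1 in 8 directions, so that some matches are likely by chance. Of the 2900 listed genes that obtained a block of their own, 1379 had fewer than 0.05 expected chance matches. Among the process genes named below, FGB and DDIT3 had more. Among the cell type markers named below, MRC1, MARCO, C1QA and C1QC had more. The counts and sums of the lists also include other genes over this limit, such as the adipocyte marker LEP at 0.223 and the skeletal muscle marker TNNI2 at 0.304. Counts of the hypoxia list include such genes too, so these counts and sums are less certain. The match on block medians placed a further 4 genes, and 8 members in all carried a name.

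SLC2A3 was the most complete of them. Its 5 probes read 4.50 to 5.23 in control, 3.33 to 3.94 in model and 7.55 to 7.66 in recovery. The block median of recovery was 7.10-fold above control and 3.19 above the floored model value on the log2 scale. The probes agreed in recovery and lay below the floor in model, where the unfloored block median was lower than control by 1.16. Of the 5 probes 3 were members, and the others missed the limit on model at -0.55 and -0.86.

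For the other 3 genes only 1 probe of the block was a member, and its neighbours were higher in model. FAM184A had a member probe at 1.82 in control, 4.47 in model and 6.86 in recovery. Its other 4 probes were at 0.93 to 1.65 for model minus control. LOC100357121, which the RefSeq gene table of assembly mOryCun1.1 lists as SCRG1, a long non-coding RNA there, had a member probe at 0.38, 4.22 and 6.75, and its other 4 probes were at 0.75 to 1.15. STEAP2, an endosomal metalloreductase that reduces iron and copper, had a member probe at 1.70, 4.83 and 6.57. Its other probe read 7.07, 7.99 and 9.01, a difference of 0.91 in model and 1.93 in recovery. These 3 genes were therefore higher already in the model array by the rest of their probes.

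None of the 3715 listed genes had an unfloored model ratio under 0.5 in size together with a recovery ratio of at least 2, although 185 had a model ratio under 0.5. The 128 members that were level also before flooring, including all probes of block 2 and A_04_P035877, could therefore match no listed gene. The named members are those for which flooring set the model value level, and they do not represent the rest.

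Named probes outside the set were also ranked by recovery ratio, among those under 1 in the size of their model ratio. The first 6 all reached the limit on recovery, so by selection they missed the limit on model. ITIH2, a heavy chain of the inter-alpha-trypsin inhibitor that binds hyaluronan, read 3.04 in control, 5.06 in model and 7.12 in recovery. ITIH4, an acute phase member of the same family, read 5.33, 4.42 and 7.62, so that its model value was lower by 0.90 and its recovery value higher by 2.29. DGKI, a diacylglycerol kinase, read 0.44, 5.17 and 6.75, and PCSK2, a prohormone convertase, read 2.57, 5.30 and 6.55. ITIH2, DGKI and PCSK2 lay below the floor in control and above it in model.

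ZC3H14, a poly(A) RNA binding protein, read 9.10, 10.09 and 11.30, and TCF7L2, a transcription factor of the Wnt pathway, read 8.34, 9.33 and 10.47. Both stood about evenly between control and recovery in the model array. Their expected chance matches of 0.120 and 0.131 were higher than those of PTX3 and BICD1, and their names are less certain.

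Gene lists for processes known in the vessel wall were set against the placed genes. They were chosen with results of these data known. The listed genes were selected by the study on the same arrays, so the counts are descriptive. As given above, no listed gene met both limits of the rule on unfloored ratios. A placed gene could thus meet the rule in effect only through flooring, and nothing about a process is read from whether it did. In the list of hypoxia and glucose uptake 13 of 23 genes were placed, and 4 exceeded control 4-fold or more in recovery. SLC2A3 alone met the rule at its block median. HIF1A, the oxygen-regulated transcription factor subunit, read 6.87, 8.76 and 11.58, so that it was higher in model too. HILPDA, a lipid droplet protein induced by hypoxia, read 7.26, 5.98 and 9.87, and ANKRD37, another hypoxia-responsive gene, read 5.91, 8.26 and 8.41. In this list 7 of the 13 genes were at least 2-fold lower in model than in control (13.1% of all tested probes), and 8 stood 2-fold or more above their model value in recovery (7.05% of all tested probes), with the same limit from the study's selection of changed genes.

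The acute phase and humoral innate list had 10 of 17 genes placed, of which PTX3 and ITIH4 were at least 4-fold higher in recovery and PTX3 alone met the rule. The next gene by recovery ratio, FGB, a fibrinogen chain, was at 0.90. Haptoglobin, HP, showed another course, at 15.15 in control, 11.86 in model and 14.93 in recovery. Of the solute carriers, 5 of 15 were placed and SLC2A3 alone met the rule, and SLC22A4, an organic cation and zwitterion transporter, was at 0.33.

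No placed gene of the other 8 process lists met the rule, an outcome largely fixed by how names were obtained. Of the immediate early genes 4 of 24 were placed, and 3 were at least 4-fold higher in recovery: NR4A3, an orphan nuclear receptor, at 3.55, the stress-response factor ATF3 at 3.15 and the AP-1 subunit FOS at 2.56. Their model ratios were 1.64, 4.15 and -1.37, so that each differed from control in model already. Of the genes induced by fasting and glucocorticoids 8 of 20 were placed and 4 were at least 4-fold higher. FKBP5, a chaperone of the glucocorticoid receptor, was at 4.02 and PDK4, which inhibits pyruvate dehydrogenase, at 2.52, with model ratios of 1.87 and -1.66.

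Of the chemokines and cytokines 7 of 33 were placed, and IL17B and CXCL10, a chemokine induced by interferon, were at least 4-fold higher, at 6.94 and 3.14, with model ratios of 5.45 and -1.60. Of the cell cycle genes 10 of 20 were placed, and 8 were at least 2-fold lower in recovery, against 16% of all tested probes. The list of the study holds only genes that it had selected as changed, so this share cannot be read against that of all probes. In the remaining lists 2 of 18 interferon response genes, 4 of 16 genes of the unfolded protein and integrated stress response, 7 of 22 genes of the matrix and its proteases and 6 of 20 genes of cyclic nucleotide and receptor kinase signalling were placed. CXCL10 led the interferon list. The largest recovery ratios in the following lists were 1.95 for DDIT3, a transcription factor of the stress response, 6.89 for SPP1, osteopontin, and 3.83 for RGS1, which restrains G-protein signalling. Their model ratios were 1.15, 4.65 and 1.72, so that these genes too stood higher in model.

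Markers of other cells differed between the same arrays. In bulk tissue, a different number of cells of a type and a different amount of RNA per cell cannot be told apart. The summed signal of the 8 placed smooth muscle markers on the log2 scale was 14.72 in control, 17.89 in model and 18.36 in recovery. That of 10 macrophage markers was 12.08, 11.93 and 13.08, that of 6 lymphocyte markers 9.43, 6.96 and 6.96, and that of 6 adipocyte markers 17.14, 12.16 and 11.87. The lymphocyte sums of model and recovery are those of 6 floored values.

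The macrophage sum of recovery came mostly from SPP1, which read 5.94, 10.59 and 12.83 and so differed in model. Of the 10 macrophage markers 2 were at least 2-fold higher and 5 at least 2-fold lower in recovery than in control, with a median of -0.51 for recovery minus control. Of all tested probes 16% were at least 2-fold lower. The placed markers come from the study's list of changed genes, so their counts cannot be read against that share. The 5 lower markers were MRC1, a mannose receptor, the scavenger receptor MARCO, the complement genes C1QA and C1QC and the acid phosphatase ACP5. They were at -1.01 to -2.72. The expected number of chance matches was 0.293 for MRC1, 0.073 for C1QA, 0.071 for C1QC and 0.058 for MARCO. These names are less certain than that of ACP5, at 0.021. The remaining sums were those of 4 endothelial markers at 11.00, 8.58 and 10.15, of 4 neutrophil markers at 10.59, 11.36 and 9.34, of 5 fibroblast markers at 14.68, 13.26 and 11.50 and of 3 skeletal muscle markers at 6.53 and 11.25 in control and model and between these in recovery. No marker of any cell type met the rule at its block median. This too was largely fixed by how names were obtained, and nothing is read from it. The part of these differences in the members' values was not tested.

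The pattern depended on how the arrays were scaled, since the model ratio is bounded tightly. The 8 control probes for spiked-in RNA that lay above the floor had a median of -0.46 for model minus control and 0.07 for recovery minus control. With the arrays aligned on them, 72 of the 163 members met the rule. All probes of blocks 1, 3 and 5 were among them, whereas none of blocks 2, 8 and 9 was, because their model ratio passed the limit, for block 2 at 0.69. The recovery ratios of these blocks moved little, that of block 2 to 6.14. PTX3, BICD1 and the 3 member probes of SLC2A3 met the rule under this scaling. A_04_P035877 and the other bright single probes described with it did not.

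Under 6 settings, namely alignment on spiked-in controls, median centring, no floor and floors at the 30th, 50th and 60th percentile, 39 members in 19 blocks met the rule in each, with a median of 3.29 for recovery minus control. They included all probes of blocks 3 and 5 and 3 probes each of blocks 1 and 4, and 32 of them were above the floor in all arrays. No named member was among them.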

How the data were processed

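Total RNA from the abdominal aorta of 3 male rabbits was labelled with Cy3 and hybridized to Agilent rabbit arrays, 1 per group. The deposited values are log2 signals, which the authors quantile-normalized in GeneSpring after image analysis in Agilent Feature Extraction (the submitters' processing notes give version 10.7). Background treatment is not given in the sources used here. The sorted columns differed by at most 0.016, so nothing further was normalized. Of the rows, 43603 were gene probes and 58 controls. Depth does not apply to arrays, and their number limits the precision.

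Values were floored at 4.37, the 40th percentile, and ratios are differences of log2 values. The analysis used Python 3.11.15, numpy 2.4.6, pandas 2.3.3 and scipy 1.17.1. Names came from the match to the study's supplementary list, whose ratios are not printed. Blocks of 5 probe numbers were found after the values had been seen: of 6618 probes without near neighbours, 6603 (99.8%) had the same place in the numbering. The counting was tested on simulated data. Named are the members the match names, the 6 named probes with the highest recovery ratio among those missing a limit of the rule by less than 0.5, and up to 3 other genes of each list described by recovery ratio, with HP and some cell type markers added after their values were seen, and 2 unnamed probes. The members and the gene lists were chosen with earlier results of these data known. The alternatives changed the floor, the scaling, the limits of the rule and the tolerance of the match.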

Additional observations from a re-analysis of the deposited data

How the results depend on the processing

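The number of members was 163 and moved with the processing. It was 281 without a floor, 90 with the arrays aligned on spiked-in controls, 407 with a recovery limit of 1.5 and 54 with one of 3, 105 with a model limit of 0.25 and 360 with one of 1, 97 when each run of consecutive probe numbers counted once, and 77 blocks when the rule was applied to block medians. Floors at the 30th, 50th and 60th percentile gave 177, 156 and 141 members, of which 135, 115 and 96 were among the 163. Centring on array medians gave 158 members, 154 of them shared, and values above the floor in all arrays 113. Requiring the unfloored model ratio to stay under 0.5 gave 128. The last of these and the block medians were chosen after seeing the data.

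The median of recovery minus control, 2.57, was 2.66 with the floor at the 50th percentile, 2.42 without a floor, 2.67 after centring and 2.94 on spiked-in controls. The median of recovery minus model, 2.55, was 2.33 without a floor and 2.81 on spiked-in controls. The number of named members was 2, but 0 with a tolerance of 0.003 and 8 on block medians. Each setting selects its own members, so these medians do not follow the same probes. The cause of these differences was not tested.

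No paired analysis was possible because each group holds 1 array, and no array can be left out of a group of 1. Signals near the floor limit the 50 members with a bound, PTX3 and BICD1 included.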
